A study of Mus musculus with 19 samples.

Results

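The 10 genes described here encode proteins of the Bcl2 family, which set whether a thymocyte lives or dies, and were taken by name from the RNA features of single thymocytes: *Bcl2*, *Bcl2l1*, *Mcl1*, *Bcl2a1b*, *Bcl2a1d*, *Bcl2l11*, *Bax*, *Bak1*, *Bbc3* and *Pmaip1*. All 10 were found among the 28692 genes of the files. They were followed across the steps of positive selection, across 7 genotypes of mice and across the cell types of the thymus.

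The family has members that keep cells alive and members that kill them. The survival proteins Bcl2, Bcl-xL (encoded by *Bcl2l1*), Mcl1 and A1 (encoded by the *Bcl2a1* genes) hold the effectors Bax and Bak in check at the outer membrane of the mitochondrion. The BH3-only proteins Bim (*Bcl2l11*), Puma (*Bbc3*) and Noxa (*Pmaip1*) bind the survival proteins and so free the effectors, which open the membrane and release cytochrome c. In the thymus, Bcl-xL is known for the survival of CD4+CD8+ double-positive (DP) cells before selection, Bcl2 for the survival of cells that passed it, and Bim for the death of cells whose T cell receptor (TCR) binds self too strongly.

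The measurements were made by CITE-seq, which counts RNA molecules and, through antibodies with DNA tags, surface proteins of the same cell. Thymi of 17 female mice, 4 to 8 weeks of age, were run on 19 lanes in 3 experiments. The 5 wild-type (WT) mice were C57BL/6 (B6) animals; WT 1 (experiment 1) and WT 2 and WT 3 (experiment 2) were sorted for CD5+TCRB+ cells, and WT 4 and WT 5 (experiment 3, 2 lanes each) were not sorted. There were 2 mice of each of 6 genotypes that steer thymocytes to a single lineage. CD4-fated mice were AND and OT-II, which carry a transgenic TCR for MHC class II, and MHCI-/-, which lack *B2m* and keep a diverse TCR repertoire. CD8-fated mice were F5 and OT-I, which carry a transgenic TCR for MHC class I, and MHCII-/-, which lack *H2-Ab1* and likewise have diverse TCRs. AND and F5 mice were also *Rag1*-/- and unsorted (experiments 1 and 2), OT-II and OT-I mice were described without that deletion and unsorted (experiment 3), so that they can also carry receptors of their own, and MHCI-/- and MHCII-/- mice were sorted for CD5+TCRB+ cells (experiment 2). Experiment 3 was done at another site than experiments 1 and 2, and held all OT mice and both unsorted WT mice, so that site cannot be told apart from the OT family or, among WT mice, from the lack of sorting.

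Of 85389 barcodes, 69262 were kept as single cells, and the lanes held 9893333 to 43303999 RNA molecules (UMIs), with medians of 1496 to 7185 UMIs per cell kept. AND 2 stood apart in its antibody library, and 42.1% of its barcodes passed the filters, against 68.7 to 94.1% in the other lanes. *B2m* was at 47.2 and 48.7 CPM (UMIs scaled to a common total) in the MHCI-/- mice and at 407 to 1268 CPM in the other mice, and MHCII-/- mice had 2.22 and 2.25 UMIs of the I-A/I-E antibody in every 10000 of all antibodies, where the others had 24.1 to 121, so that the labels of both knockouts hold. Of the barcode sequences of kept cells, 0.939% occurred in more than 1 lane, with at most 13 shared by a pair of mice. *Bax* ran at 35.7 to 44.0 CPM over all cells of WT 5, OT-I 2 and OT-II 2 and at 115 to 158 CPM in the other 14 mice. The lanes of these 3 mice, all of experiment 3, had medians of 1496 to 3156 UMIs per cell. WT 4, with 2810 and 3444 UMIs on its lanes, OT-I 1 and OT-II 1 were of the same experiment and not low in *Bax*. The parts of depth and of processing within experiment 3 were not tested.

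The survival genes lie apart in the genome (GRCm38, the build of the files): *Bcl2* (ENSMUSG00000057329) at chr1:106538178-106714274 on the minus strand, *Bcl2l1* (ENSMUSG00000007659) at chr2:152780668-152831728 on the minus strand, and *Mcl1* (ENSMUSG00000038612) at chr3:95658788-95663176 on the plus strand. The A1 genes share a chromosome, with *Bcl2a1d* (ENSMUSG00000099974) at chr9:88723285-88731914 on the minus strand and *Bcl2a1b* (ENSMUSG00000089929) at chr9:89199209-89207827 on the plus strand. The effector genes are *Bax* (ENSMUSG00000003873) at chr7:45461697-45466898 on the minus strand and *Bak1* (ENSMUSG00000057789) at chr17:27019810-27029009 on the minus strand. Of the BH3-only genes, *Bcl2l11* (ENSMUSG00000027381) lies at chr2:128126038-128162547 and *Bbc3* (ENSMUSG00000002083) at chr7:16308393-16318205, both on the plus strand, and *Pmaip1* has the identifier ENSMUSG00000024521.

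The promoter of *Bcl2l11* and those of both A1 genes are shown. These are 3 of the 6 members that rose when DP cells gained CD69, and the A1 promoters are near copies of each other. The sequences are from RefSeq (GRCm38.p6), 5′ to 3′ on the strand of the gene. RefSeq gives *Bcl2l11* 2 starts, and the window shown is that of the upstream start. The capitals mark letters searched on both strands: GTAAACA, a motif of the FOX factors; GCGGGGGCG and GCGTGGGCG, forms of the EGR motif; and TGANTCA, the AP-1 motif, which reads the same on either strand. For the A1 genes, the 64 bases nearest the RefSeq start, which the annotation of the files places inside the gene, were left out.
Bcl2l11, chr2:128125788-128126037, plus strand: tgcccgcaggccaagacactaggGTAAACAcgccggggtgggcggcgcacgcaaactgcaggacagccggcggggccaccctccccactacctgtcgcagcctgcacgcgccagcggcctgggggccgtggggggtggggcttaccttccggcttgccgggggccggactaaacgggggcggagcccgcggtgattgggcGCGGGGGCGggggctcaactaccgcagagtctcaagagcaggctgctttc
Bcl2a1b, chr9:89199023-89199208, plus strand: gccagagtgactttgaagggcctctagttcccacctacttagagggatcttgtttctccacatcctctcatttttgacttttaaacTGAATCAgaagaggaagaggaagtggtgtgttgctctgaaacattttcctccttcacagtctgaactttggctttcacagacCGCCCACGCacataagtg
Bcl2a1d, chr9:88731915-88732100, minus strand: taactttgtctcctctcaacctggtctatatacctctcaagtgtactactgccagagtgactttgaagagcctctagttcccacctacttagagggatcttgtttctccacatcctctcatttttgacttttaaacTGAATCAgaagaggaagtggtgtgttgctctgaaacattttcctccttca
The window of the other *Bcl2l11* start (chr2:128127325-128127574) held none of these letters. Windows of *Bcl2*, *Mcl1* and *Bax*, which rose in the same step, held none either, and a link of the letters to the rise was not tested. The *Bcl2l11* window shown held a FOX match 227 bases and an EGR match 50 bases before the RefSeq start. *Bbc3*, which was not called from DP1 to DP2, had the same EGR letters 49 bases before the start of one of its 3 windows and a FOX match, on the other strand, 167 bases before that of another. The *Bcl2a1b* window held an AP-1 match 164 bases and an EGR match, on the other strand, 82 bases before it. In *Bcl2a1d* the AP-1 match lay 114 bases before the start, and the EGR match, 38 bases before it, is in the part left out. Of 32851 promoter windows of 250 bases, 3.17% held GTAAACA, 2.57% held GCGGGGGCG, 0.536% held GCGTGGGCG and 6.75% held TGANTCA. The *Bcl2a1b* and *Bcl2a1d* windows were identical at 198 of 206 aligned bases (96.1%). Their transcripts share sequence as well: of 311 stretches of 90 bases in the last 400 bases of *Bcl2a1b*, near where these libraries were read, 34.1% occur unchanged in *Bcl2a1d*. *Bcl2a1a*, another A1 gene of the files, shares 27.0% of such stretches with *Bcl2a1d* and 0.322% with *Bcl2a1b*. A read from such a stretch cannot be assigned to a single gene, so that the levels of both are uncertain.

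To follow the genes through selection, UMIs were summed per mouse over 8 gates set on antibody counts alone. DP1 cells (CD4+CD8a+CD69-CD127-) are DP cells without CD69. DP2 cells (CD4+CD8a+CD69+CD127-) carry the activation marker CD69, and CD4+CD8lo cells (CD4+CD8a-CD69+CD127-) lie below the CD8a threshold. DP1 of the unsorted WT mice had 311 and 340 UMIs of CD5, a protein that tracks TCR signaling, in every 10000 of all antibodies. It had 1086 to 1484 in the sorted WT mice and 1513 to 2078 in AND and F5 mice. DP1 was therefore not shown to precede selection in those mice. DP3 cells (CD4+CD8a+CD69+CD127+TCRb+) have CD127, the IL-7 receptor chain, and both coreceptors. Semimature (SM) and mature (Mat) CD4 or CD8 cells are CD127+TCRb+ with a single coreceptor, with CD69 in SM and without it in Mat. In WT 1 to WT 5, CD4+CD8lo cells had 34.3, 22.0, 19.6, 37.5 and 38.5 UMIs of CD8a in every 10000 of all antibodies. CD4 SM cells had 23.0, 17.7, 15.7, 31.4 and 33.7, and DP2 cells 414 to 710. Over all 17 mice, 35.6% of CD4+CD8lo and of CD4 SM cells lay in a cluster later named mature SP-like. The CD4+CD8lo gate therefore does not set cells with low CD8 apart from those without it. Levels are CPM of each sum, and steps between gates were tested over the 5 WT mice with edgeR's quasi-likelihood test on 9447 genes, with the mouse as a block and Benjamini-Hochberg adjustment, and called at an adjusted p under 0.05. Fold changes are log2 ± SE. In such sums, fewer cells of a type and less RNA per cell cannot be told apart. *Pmaip1*, at 0 to 5.04 CPM in every gate of every WT mouse, fell below the low-count filter, and the other 9 genes were tested in each step.

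The step from DP1 to DP2 moved most of the family: 6 of 9 tested members rose and 1 fell, in a step in which 22.6% of all genes were called (11.1% higher and 11.5% lower). The median fold change of the 9 members was 0.36, and that of all genes 0.02. *Bcl2* was at 76.3, 117, 46.1, 17.4 and 19.9 CPM in DP1 of WT 1 to WT 5 and at 325, 421, 318, 107 and 71.2 CPM in DP2. It was higher in DP2 in 5 of 5 mice, although the ranges overlapped, and both unsorted mice were lowest in either gate. The rise was 2.16 ± 0.26 (edgeR's quasi-likelihood test, adjusted p = 1.47e-07), with 2.11 in the sorted and 2.30 in the unsorted mice.

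*Bcl2l11*, a death gene, rose in the same step and went from 32.4, 66.2, 20.9, 35.5 and 62.5 CPM in DP1 to 228, 183, 207, 82.8 and 132 CPM in DP2. Every DP2 value was above every DP1 value. The rise was 1.84 ± 0.28 (edgeR's quasi-likelihood test, adjusted p = 3.73e-06), 2.19 in the sorted and 1.11 in the unsorted mice. It moved with a cluster of cells bearing signs of negative selection, described with the cell types further on, which made up 6.50, 12.2 and 10.5% of the DP2 gate of WT 1, WT 2 and WT 3, 0.859 and 1.19% in WT 4 and WT 5, and at most 0.404% of DP1. Cycling-like cells made up 7.67 to 25.7% of DP1 and at most 9.80% of DP2. With this cluster left out together with those named Treg-like, NKT-like, cycling-like and other than conventional DP or single-positive cells, the *Bcl2l11* rise was 0.42 (adjusted p = 0.13), and those of *Bcl2a1b* (1.29, adjusted p = 0.073), *Mcl1* (0.06, adjusted p = 0.79) and *Bax* (0.24, adjusted p = 0.15) were also no longer called in edgeR's quasi-likelihood test. Those of *Bcl2* (1.86) and *Bcl2l1* (-0.76) were.

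*Bcl2l1* moved against the other survival genes. It was at 131, 74.7, 88.6, 126 and 138 CPM in DP1 and at 25.1, 36.3, 28.9, 112 and 133 CPM in DP2, lower in 5 of 5 mice. The 3 sorted mice were at 25.1 to 36.3 CPM in DP2 and the 2 unsorted mice at 112 and 133 CPM, within the range of DP1. Quiescent DP-like cells, a class set by clustering on RNA in which *Bcl2l1* was highest, made up 51.3, 35.4, 29.5, 80.3 and 72.2% of DP1 and 3.25, 3.43, 2.63, 69.6 and 65.0% of DP2 in WT 1 to WT 5, so that their share was high in the DP2 cells of the mice with high *Bcl2l1*, and the part of those cells was not tested. The fall was -0.64 ± 0.18 (edgeR's quasi-likelihood test, adjusted p = 0.00854) over all mice, -1.54 in the sorted (adjusted p = 2.28e-07) and -0.16 in the unsorted mice (adjusted p = 0.48), and it was not called without WT 1 (-0.46, adjusted p = 0.079).

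The A1 genes rose from low levels. *Bcl2a1b* was at 4.53, 6.02, 3.60, 0.33 and 0.79 CPM in DP1 and at 21.0, 31.3, 13.3, 3.55 and 4.54 CPM in DP2, a rise of 2.53 ± 0.63 (edgeR's quasi-likelihood test, adjusted p = 0.00235). *Bcl2a1d* was at 2.59, 5.52, 1.44, 0.88 and 0.26 CPM in DP1 and at 37.7, 26.9, 17.8, 4.50 and 1.01 CPM in DP2, a rise of 2.80 ± 0.57 (adjusted p = 0.000243). Both rose in 5 of 5 mice, and in both gates the unsorted mice were lowest.

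Of the remaining members, *Mcl1* and *Bax* rose by less. *Mcl1* was at 252, 345, 173, 336 and 223 CPM in DP1 and at 337, 454, 262, 409 and 280 CPM in DP2, a rise of 0.36 ± 0.09 in 5 of 5 mice (edgeR's quasi-likelihood test, adjusted p = 0.004). *Bax* was at 156, 131, 109, 108 and 33.6 CPM in DP1 and at 205, 183, 160, 127 and 38.4 CPM in DP2. Its rise of 0.34 ± 0.11 (edgeR's quasi-likelihood test, adjusted p = 0.0242) was 0.36 without WT 5, whose *Bax* level stood apart, and was not called without WT 1, WT 2 or WT 3 (adjusted p of 0.064, 0.18 and 0.11). *Bak1* changed by 0.02 ± 0.11 (adjusted p = 0.93), from 24.1 to 74.4 CPM over the mice in DP1 and from 27.8 to 92.2 CPM in DP2. *Bbc3*, at 13.2 to 35.6 CPM in DP1 and 17.2 to 42.2 CPM in DP2, changed by 0.36 ± 0.20 (adjusted p = 0.22).

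**Figure D1:**
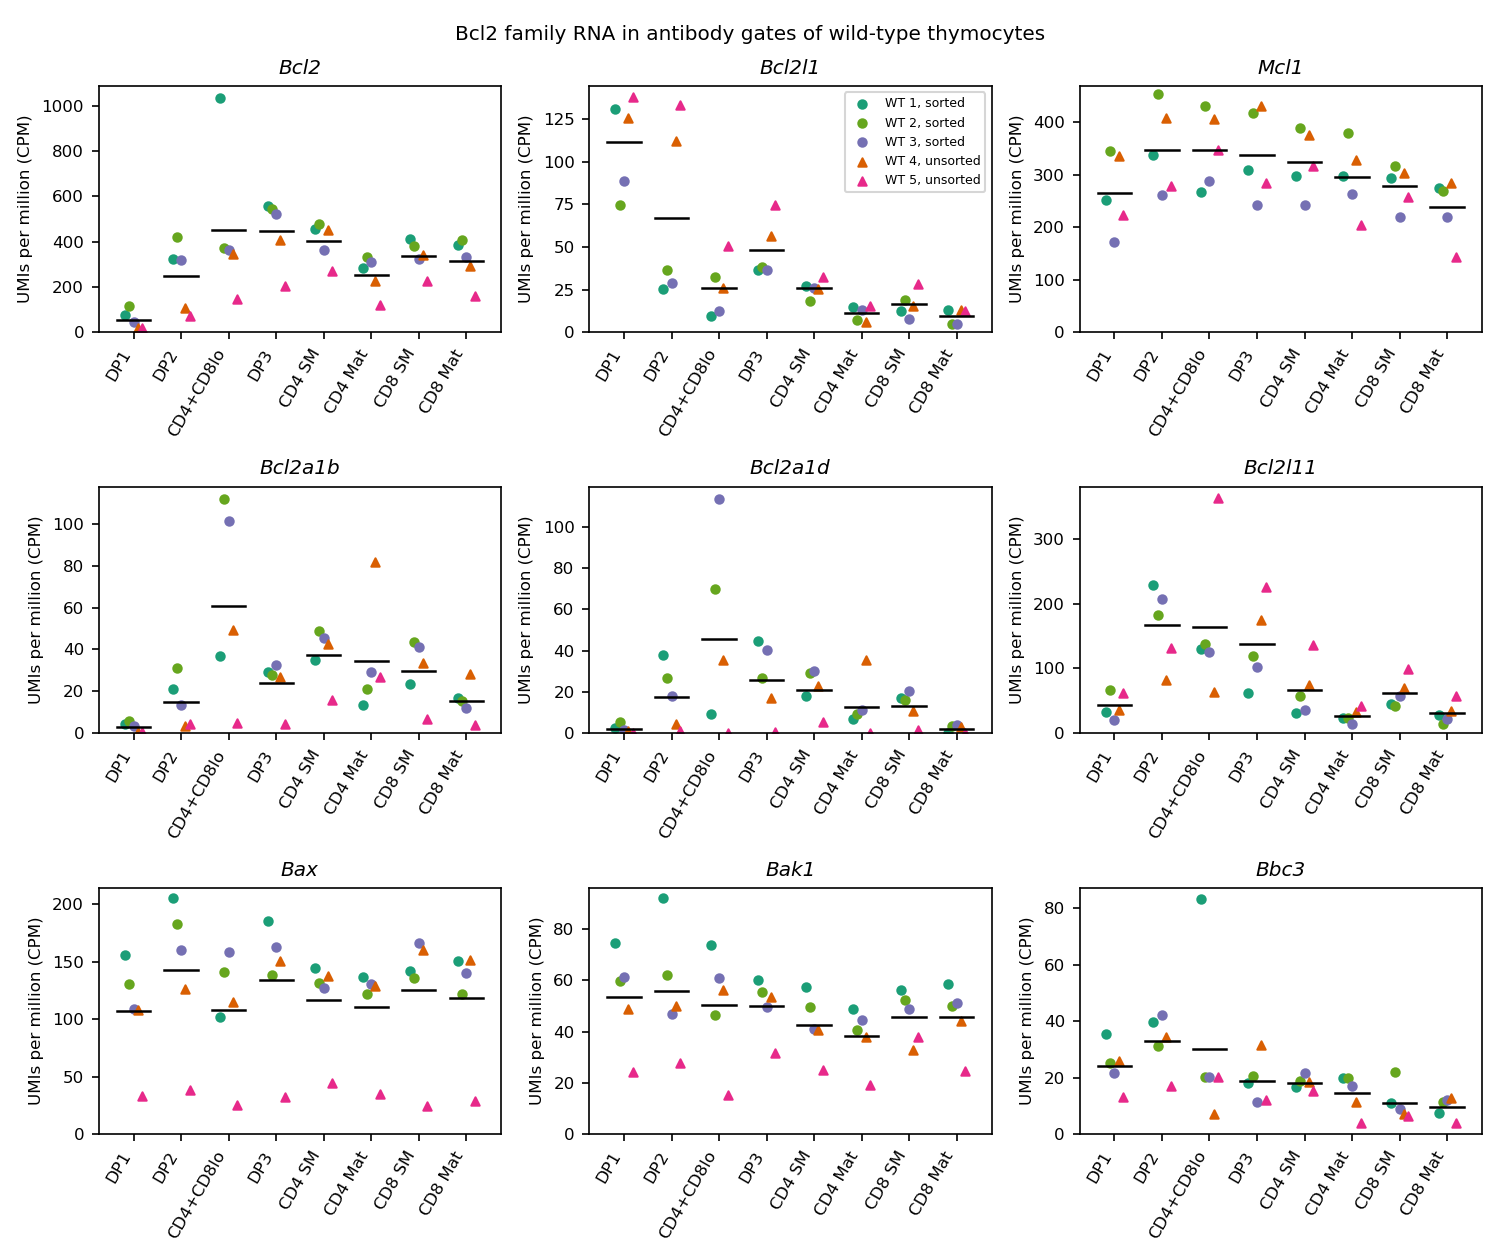
Level (CPM, linear axis from 0) of 9 Bcl2 family genes in each of the 8 antibody gates, with a point for each of the 5 WT mice (circles sorted, triangles unsorted) and a line at the mean. *Bcl2* was lowest in DP1 (17.4 to 117 CPM), *Bcl2l1* was highest in DP1 (74.7 to 138 CPM), and all *Bcl2l11* values of DP2 (82.8 to 228 CPM) lay above those of DP1 (20.9 to 66.2 CPM).

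The same step in the 12 lineage-restricted mice, which share no animal with the WT set, gave 7 called members of 9, again with 6 higher and 1 lower, against 32.7% of 9226 genes called. In these mice *Bcl2* rose by 1.44 ± 0.23 (edgeR's quasi-likelihood test, adjusted p = 6.8e-07) and *Bcl2l11* by 1.31 ± 0.21 (adjusted p = 6.56e-07), and *Bcl2l1* changed by -1.23 ± 0.16 (adjusted p = 4.56e-09). The other called members were *Bcl2a1b* (2.45), *Bcl2a1d* (1.94), *Bax* (0.31) and *Mcl1* (0.31), and *Bbc3* missed the threshold (0.43 ± 0.18, adjusted p = 0.0526).

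From DP2 to CD4+CD8lo, 4 of 9 members were called, 3 higher and 1 lower, with 19.7% of all genes called (10.9% higher and 8.81% lower). *Bcl2* reached 1035, 372, 361, 345 and 146 CPM in CD4+CD8lo cells, a rise of 1.03 ± 0.27 over DP2 (edgeR's quasi-likelihood test, adjusted p = 0.00454). The highest value, of WT 1, came from 22 cells, and WT 2 alone was lower than in DP2. Without WT 1 the rise was 0.82 (edgeR's quasi-likelihood test, adjusted p = 0.051). Beyond DP2, the lineage-restricted mice were fitted by fate, with the CD4-fated mice alone for this step and those up to CD4 Mat. In the CD4-fated mice, with 21.2% of genes called, 1 of 9 members was called higher and 3 lower. The *Bcl2* rise there was 0.09 (edgeR's quasi-likelihood test, adjusted p = 0.84).

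*Bcl2l1* was at 9.24, 32.7, 12.2, 25.8 and 50.4 CPM in CD4+CD8lo cells, below DP2 in 5 of 5 mice (-1.11 ± 0.33, adjusted p = 0.0126). Here the unsorted mice carried the change (-1.65, adjusted p = 5.5e-05), and the sorted mice, already low in DP2, gave -0.18 (adjusted p = 0.86). No cell of CD4+CD8lo was quiescent DP-like in the 5 WT mice. It was not called without WT 4 (-0.76, adjusted p = 0.2) or without WT 5 (-1.02, adjusted p = 0.077). In the CD4-fated mice it fell by 0.73 (edgeR's quasi-likelihood test, adjusted p = 0.0342).

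The A1 genes rose further in this step in the WT mice. *Bcl2a1b* was at 37.0, 112, 101, 49.3 and 5.04 CPM, above DP2 in 5 of 5 mice (2.64 ± 0.50, adjusted p = 9.04e-05). *Bcl2a1d*, the close copy, ran from 9.24 to 114 CPM in WT 1 to WT 4 and was at 0 CPM in WT 5 (2.05 ± 0.47, adjusted p = 0.00133), higher than in DP2 in 3 of 5 mice. The value of 0 in WT 5 rests on 86 cells. These rises came with a shift in cell types. The clusters left out above (negative selection-like, Treg-like and the others named, here called the named other clusters) made up 22.1 to 38.5% of CD4+CD8lo and 6.33 to 15.2% of DP2 in the WT mice. Over all 17 mice, Treg-like cells were 17.9% of the former and 0.472% of the latter. With those clusters left out, the rise of *Bcl2a1b* was 2.27 (adjusted p = 0.000326 in edgeR's quasi-likelihood test) and that of *Bcl2a1d*, 1.14, was no longer called (adjusted p = 0.132). In the CD4-fated mice, with all clusters kept, *Bcl2a1b* was called higher and *Bcl2a1d* was not called. *Bcl2l11* was at 129, 138, 126, 63.4 and 363 CPM and was not called (0.08 ± 0.33, adjusted p = 0.92). It rose by 0.74 with the named other clusters left out (adjusted p = 0.0266) and fell by 0.77 ± 0.27 in the CD4-fated mice (edgeR's quasi-likelihood test, adjusted p = 0.0351). The CD8-fated mice were not in that fit.

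From CD4+CD8lo to CD4 SM, 0.328% of genes (31) were called and no member was, with 2 members at an unadjusted p under 0.05. *Bcl2l11*, at 30.7, 56.9, 36.5, 74.6 and 137 CPM in CD4 SM, was 1 of these (-1.14 ± 0.32, adjusted p = 0.128), and DESeq2 called it (-1.23, adjusted p = 0.0453). *Bcl2* in CD4 SM was at 457, 479, 365, 451 and 269 CPM (0.18 ± 0.26, adjusted p = 0.93).

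From CD4 SM to CD4 Mat, *Bcl2l11* and *Bcl2l1* fell, with 10.0% of all genes called (3.96% lower). *Bcl2l11* reached 23.5, 23.8, 13.8, 32.2 and 42.5 CPM in CD4 Mat, below CD4 SM in 5 of 5 mice (-1.14 ± 0.33, adjusted p = 0.0198). *Bcl2l1* went from 26.9, 18.3, 25.9, 25.6 and 32.4 CPM in CD4 SM to 14.8, 6.93, 12.8, 5.76 and 15.5 CPM in CD4 Mat, with no overlap (-0.93 ± 0.28, adjusted p = 0.027). The CD4-fated mice gave -1.07 for *Bcl2l11* (adjusted p = 0.0217) and -0.85 for *Bcl2l1* (adjusted p = 0.0267), with 5.41% of genes called by edgeR's quasi-likelihood test. *Bcl2* was lower in 5 of 5 WT mice, at 285, 332, 308, 228 and 120 CPM in CD4 Mat, and missed the threshold (-0.60 ± 0.24, adjusted p = 0.105). Negative selection-like cells made up 2.62 to 4.08% of CD4 SM and 0 to 0.754% of CD4 Mat in the WT mice. With the named other clusters left out, *Bcl2l11* changed by -0.72 (adjusted p = 0.0184 in edgeR's quasi-likelihood test) and *Bcl2l1* by -0.88, no longer called (adjusted p = 0.0623), and both A1 genes were called lower (*Bcl2a1b* -1.19, *Bcl2a1d* -1.81). In the WT mice, the *Bcl2l11* call was lost without WT 2, WT 3 or WT 5, and that of *Bcl2l1* without WT 2, WT 4 or WT 5.

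**Figure D2:**
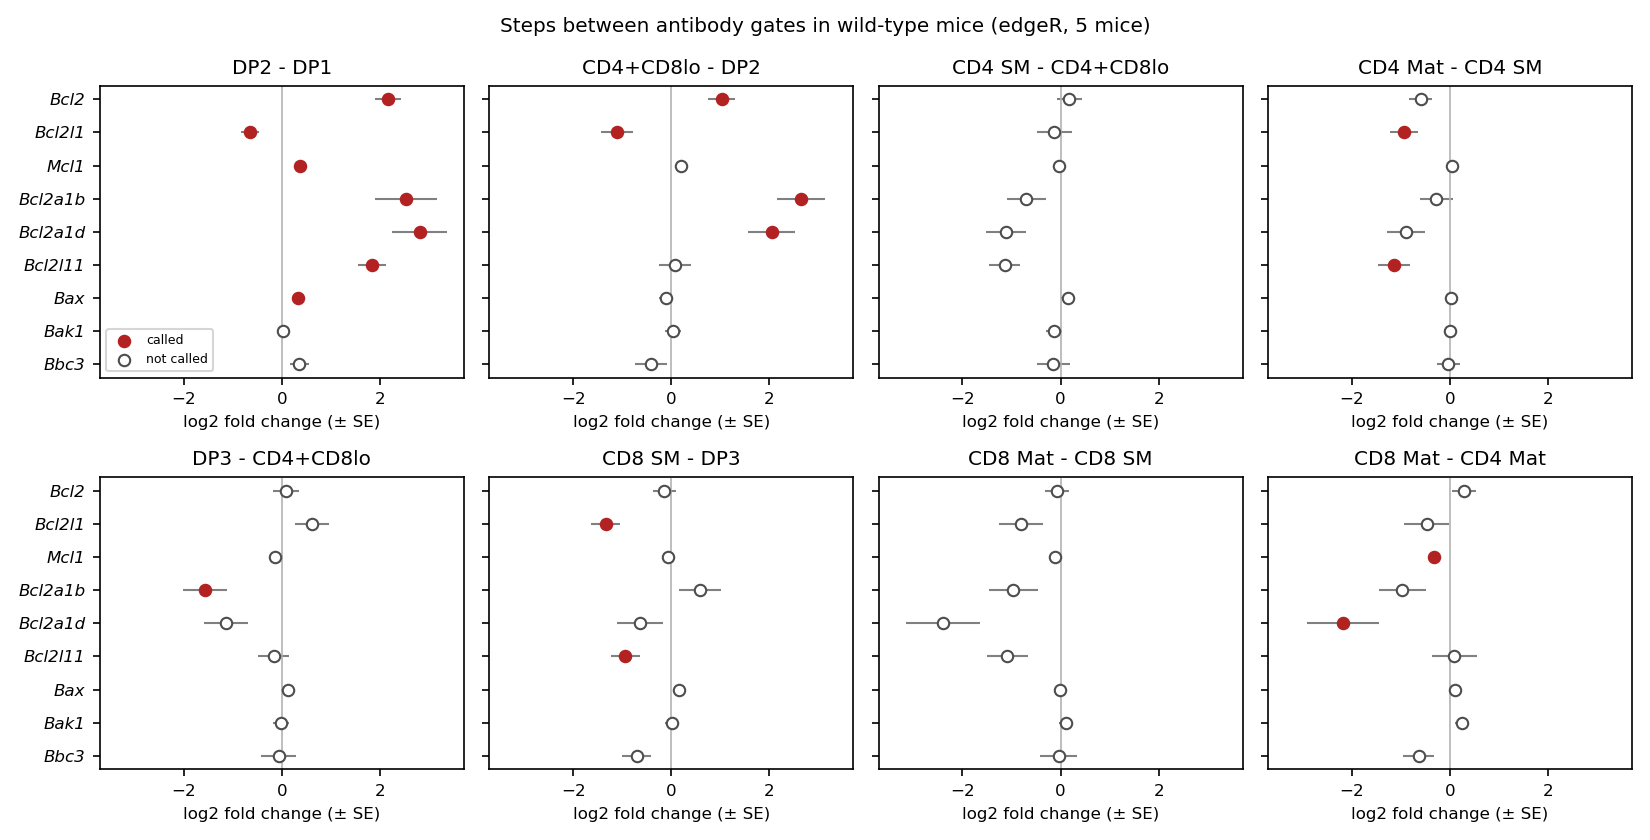
Log2 fold change with SE of the 9 tested members in each of the 8 steps between gates of the 5 WT mice, filled where edgeR's quasi-likelihood test called the gene. *Bcl2l1* had no positive called value, *Bcl2* rose by 2.16 into DP2 and by 1.03 into CD4+CD8lo, and *Bcl2l11* rose by 1.84 into DP2 and was called lower at CD4 Mat (-1.14) and CD8 SM (-0.93).

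On the CD8 side, cells pass a second DP gate, DP3, where CD127 is present. From CD4+CD8lo to DP3, 6.70% of genes were called (4.35% lower) and of the members *Bcl2a1b* alone, at 29.3, 27.6, 32.5, 26.8 and 4.53 CPM in DP3 (-1.57 ± 0.46, adjusted p = 0.0277 in edgeR's quasi-likelihood test). That call was lost in DESeq2 and without WT 2, WT 3 or WT 5. For the steps of the CD8 side, the CD8-fated mice were fitted alone, and F5 mice had too few CD4+CD8lo cells. There, 0.257% of genes were called, and the value was -0.94 (edgeR's quasi-likelihood test, adjusted p = 0.76).

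From DP3 to CD8 SM, 24.6% of genes (11.5% lower) and 2 members were called, both lower. *Bcl2l1* went from 36.3, 38.4, 36.4, 56.6 and 74.7 CPM in DP3 to 12.5, 19.2, 7.73, 15.6 and 28.0 CPM in CD8 SM, with no overlap (-1.34 ± 0.30, adjusted p = 0.000764). Quiescent DP-like cells were 0, 0.738, 0, 31.7 and 30.7% of DP3 and 0% of CD8 SM in WT 1 to WT 5, and WT 4 and WT 5 had the most *Bcl2l1* in DP3. The part of those cells was not tested. *Bcl2l11* went from 62.8, 119, 101, 175 and 226 CPM to 45.3, 41.3, 56.7, 69.3 and 98.8 CPM (-0.93 ± 0.30, adjusted p = 0.0205), lower in 5 of 5 mice with overlapping ranges. The *Bcl2l11* call was lost without WT 2 or WT 4 and with the named other clusters left out (-0.23, adjusted p = 0.44), which included 2.91 to 4.80% negative selection cells in DP3 and 1.32 to 3.77% in CD8 SM. In the CD8-fated mice, 4 members were lower in CD8 SM by edgeR's quasi-likelihood test, with 15.1% of genes called: *Bcl2l11* (-1.20), *Bbc3* (-0.84), *Bcl2l1* (-0.83) and *Mcl1* (-0.37).

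From CD8 SM to CD8 Mat, 1.70% of genes and no member were called, with 2 members at an unadjusted p under 0.05. *Bcl2a1d* was 1 of these (-2.40 ± 0.76, adjusted p = 0.106) and was called by DESeq2 (-2.36, adjusted p = 0.0397). *Bcl2l11* was the other, at 28.3, 14.8, 21.9, 34.0 and 57.3 CPM in CD8 Mat (-1.08 ± 0.41, adjusted p = 0.209). *Bcl2* was at 411, 380, 323, 341 and 227 CPM in CD8 SM and at 384, 407, 331, 294 and 160 CPM in CD8 Mat (-0.08 ± 0.25).

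Mature cells of the 2 lineages in the same WT mice differed in *Mcl1* and *Bcl2a1d*, with 11.7% of all genes called (5.96% lower in CD8 Mat). *Mcl1* was at 298, 380, 264, 328 and 205 CPM in CD4 Mat and at 275, 270, 220, 285 and 143 CPM in CD8 Mat, lower in CD8 Mat in 5 of 5 mice (-0.32 ± 0.10, adjusted p = 0.034). *Bcl2a1d* was at 6.79, 9.09, 11.4, 35.7 and 0 CPM in CD4 Mat and at 0, 3.28, 4.06, 2.84 and 0 CPM in CD8 Mat (-2.19 ± 0.73, adjusted p = 0.0443). The *Mcl1* call was lost without WT 2, WT 3 or WT 4, and the *Bcl2a1d* call without any of WT 2 to WT 5 and with the named other clusters left out (-0.39, adjusted p = 0.76).

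The level of *Bcl2* against that of *Bcl2l1* was followed as log2((*Bcl2* CPM + 1)/(*Bcl2l1* CPM + 1)) per mouse. It compares gates, not the 2 genes. Over the WT mice it averaged -1.32 ± 1.45 (SD, n = 5) in DP1, 1.92 ± 2.21 in DP2, 4.02 ± 1.89 in CD4+CD8lo, 3.15 ± 1.05 in DP3, 3.91 ± 0.59 in CD4 SM, 4.40 ± 0.98 in CD4 Mat, 4.35 ± 0.86 in CD8 SM and 4.94 ± 1.03 in CD8 Mat. From CD4+CD8lo on, neighbouring gates in this order lay within their spread.

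The other genes of the pathway were read from a list of 46 genes of the family, of caspases and of their regulators, of which 37 passed the filter in the WT steps. From DP1 to DP2, 6 rose and 6 fell, against 11.1% and 11.5% of all genes, with a list median of -0.03 against 0.02 for all genes. Among them were *Birc5* (-2.61), which is a gene of dividing cells as well as an inhibitor of apoptosis, and *Trp53* (0.67), which encodes p53. Into CD4+CD8lo, 3 rose and 2 fell (10.9% and 8.81% of all genes), led by *Birc5* (-2.02), *Foxo1* (1.78), a FOX factor of quiescent lymphocytes, and *Endog* (1.33), a mitochondrial nuclease. From CD4 SM to CD4 Mat, 3 rose, among them *Aven* (0.89) and *Endog* (0.67), and 3 fell, where 6.04% of all genes rose and 3.96% fell.

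On the CD8 side, 1 list gene rose into DP3 (*Vdac1*, a channel of the outer mitochondrial membrane, 0.44) and 1 fell (*Foxo1*, -0.77), with 2.35% of all genes rising and 4.35% falling. Into CD8 SM, 4 rose and 2 fell (13.1% and 11.5% of all genes), led by *Endog* (1.05), *Aven* (0.88) and *Foxo1* (0.79). Between mature cells, 3 were higher and 5 lower in CD8 Mat than in CD4 Mat (5.71% and 5.96% of all genes), led by *Birc3* (-0.60), an inhibitor of apoptosis under NF-kB control, *Foxo1* (-0.46) and *Vdac1* (0.45). None of the 37 was called from CD4+CD8lo to CD4 SM or from CD8 SM to CD8 Mat. All these calls are from edgeR's quasi-likelihood test over all genes.

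The genes whose log2(CPM + 1) over the 40 sums of the WT mice (8 gates of 5 mice, among 5829 genes with a mean of at least 20 CPM) ran most like *Bcl2* were *Tmsb10* (Pearson r = 0.92), *Galnt6* (0.92) and *Cnn2* (0.91). Those most like *Bcl2l1* were *Ssbp2* (0.92), *Kremen1* (0.91) and *Ets2* (0.89), and those most like *Bcl2l11* were *Jarid2* (0.93), *Kdm2b* (0.86) and *Hivep3* (0.86). The sums share mice and libraries, so that these are descriptions.

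To see which cells carried each gene, cells were clustered by RNA with the 10 members and the pathway list kept out, and clusters were named from fixed marker lists. For the classes the results turn on, the leading genes were these: *Rag1* led both quiescent DP-like clusters (15499 cells), *Egr1*, *Egr2*, *Cd5* and *Cd69* the signaled DP-like cluster (4335 cells), *Nr4a1*, *Gadd45b*, *Tnfrsf9* and *Pdcd1* the negative selection-like cluster (1495 cells), and *Foxp3* and *Ctla4* the Treg-like cluster (1659 cells). Other names were less sure. The NKT-like cluster (476 cells) held 1 of its markers among its 10 leading genes, beside receptor genes shared with NK cells (*Klra1*, *Klra9*, *Klrk1*), and 1 of the DN-like clusters (482 cells) held as many gamma-delta as DN markers there. Of the kept cells, 25046 lay in clusters that were given no name. Levels are given as mean ± SD of CPM over the WT mice with at least 10 cells, with no test, since the classes come from RNA of the same cells. WT 5 had 19 signaled DP-like, 15 mature SP-like and 13 CD8 SP-like cells, so that its values in these classes rest on few cells.

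*Bcl2l11* stood at 525, 583, 316, 997 and 1439 CPM in the negative selection-like cells of WT 1 to WT 5 (87 to 194 cells per mouse), with a mean of 772 ± 448. In each of the other classes its mean was at most 99.9 CPM. It was at 78.5, 94.5, 63.5, 118 and 136 CPM in signaled DP-like cells of the same mice, and at 73.4 to 135 CPM in Treg-like cells, so that the negative selection-like values overlapped neither.

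*Bcl2l1* was highest in quiescent DP-like cells, at 265, 171, 177, 166 and 185 CPM, a mean of 193 ± 41.1. In signaled DP-like cells it was at 18.3, 21.2, 16.3 and 19.9 CPM in WT 1 to WT 4 and at 181 CPM in WT 5. *Bcl2* ran the other way, at 26.3 ± 5.97 CPM in quiescent DP-like and 343 ± 82.1 CPM in signaled DP-like cells, and was at 276 CPM on average in negative selection-like cells. *Bbc3* had its highest mean in quiescent DP-like cells (47.3 ± 16.6 CPM) and was at 4.73 CPM on average in cycling-like cells.

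The A1 genes marked other cells. *Bcl2a1b* was highest in the cluster named NKT-like (166 ± 71.9 CPM), negative selection-like cells (157 ± 78.7 CPM) and myeloid-like cells (120 ± 56.1 CPM, n = 4), followed by Treg-like cells (79.5 ± 38.4 CPM), among classes found in at least 4 mice, and the ranges of these 4 classes overlapped. Between 0.6 and 3.3 CPM were found in quiescent DP-like cells, and 0.388 CPM on average in double-negative (DN)-like cells. *Bcl2a1d* had means of 109 CPM in NKT-like, 105 CPM in negative selection-like, 57.0 CPM in myeloid-like and 49.3 CPM in Treg-like cells. *Mcl1* varied less over the classes found in all 5 mice, from 121 ± 28.7 CPM in DN-like to 435 ± 88.8 CPM in quiescent DP-like cells, and *Pmaip1* was highest in myeloid-like cells (15.8 ± 10.5 CPM, n = 4).

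**Figure D3:**
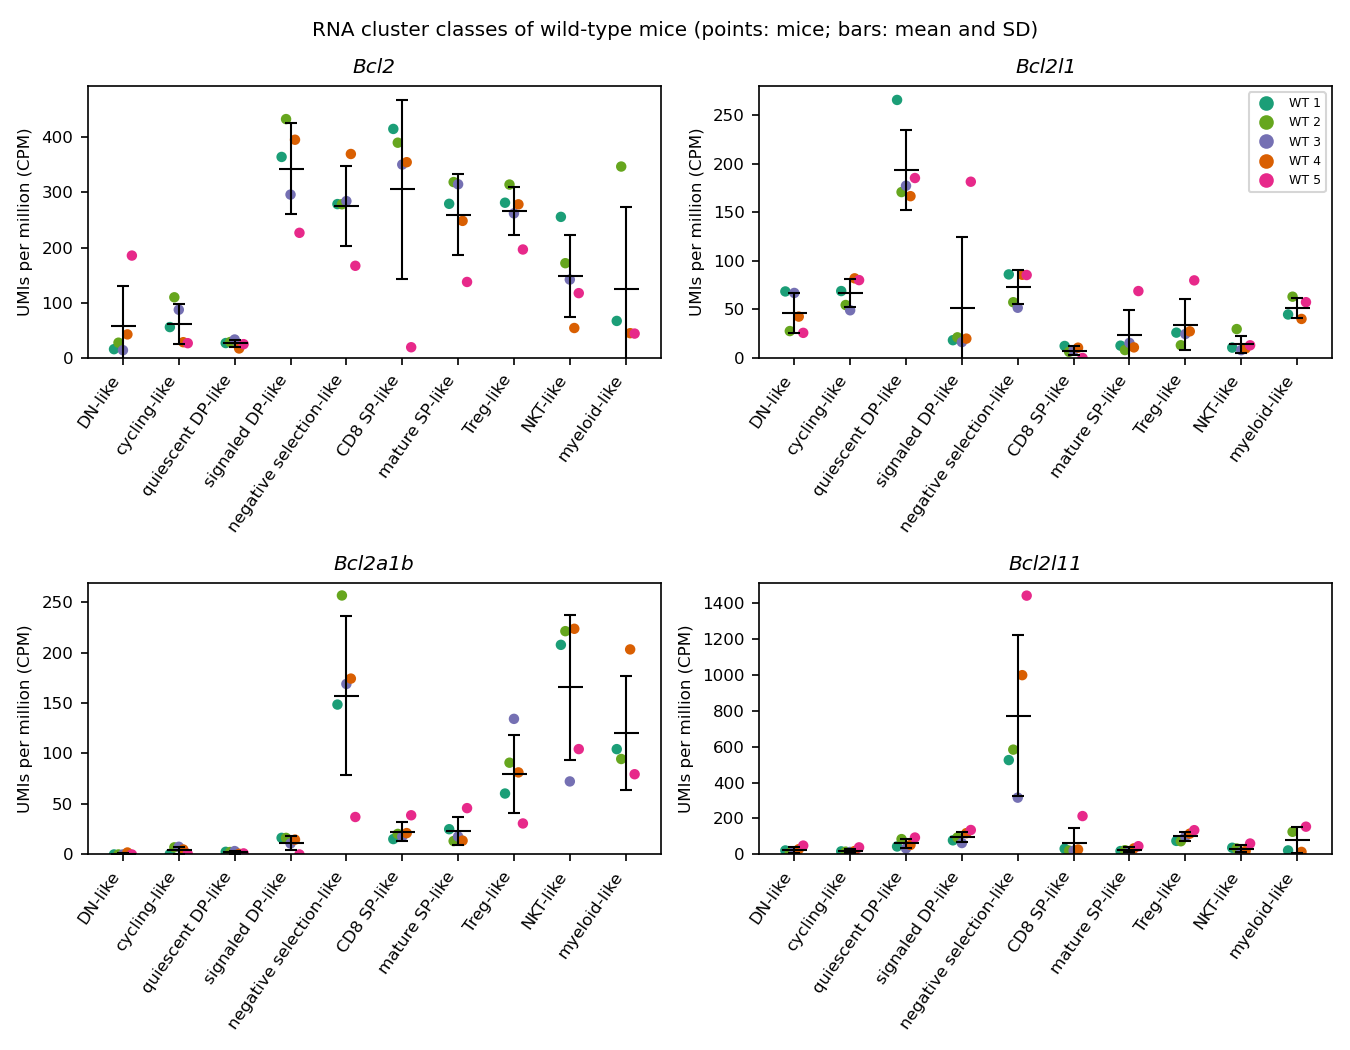
Level (CPM, linear axis from 0) of *Bcl2*, *Bcl2l1*, *Bcl2a1b* and *Bcl2l11* by RNA class in the WT mice, with a point per mouse and bars for the mean and SD, the lower bars ending at 0. *Bcl2l11* in negative selection-like cells (316 to 1439 CPM) lay above its values in quiescent and signaled DP-like cells, *Bcl2l1* was highest in quiescent DP-like cells (mean 193 CPM), and *Bcl2a1b* had its highest means in NKT-like (166 CPM) and negative selection-like cells (157 CPM).

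To ask whether the family differs between cells bound for the CD4 and the CD8 lineage, CD4-fated and CD8-fated mice were compared gate by gate, with the family of genotypes (AND with F5, OT-II with OT-I, MHCI-/- with MHCII-/-) as a covariate. In DP1, none of 8635 genes was called (0.00%) by edgeR's quasi-likelihood test, with 190 at an unadjusted p under 0.05 and 3 called by DESeq2, and no member of 7 tested was at an unadjusted p under 0.05 or called by DESeq2. In DP2, 0.0829% of 7236 genes were called and no member of 7. In CD4+CD8lo, where F5 mice had too few cells and 6 mice stood against 4, 0.0899% of 5564 genes were called and no member of 5. In each of these 2 gates, 1 member was at an unadjusted p under 0.05, as were 4.53% of all genes in DP2 and 5.73% in CD4+CD8lo, and DESeq2 called 26 and 19 genes but no member.

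The members nearest a difference in DP1, DP2 and CD4+CD8lo were *Bcl2l1* in DP2 and *Bcl2l11* in CD4+CD8lo. *Bcl2l1* in DP2 ran from 27.6 to 57.8 CPM (median 33.4) in the 6 CD4-fated mice and from 13.1 to 33.9 CPM (median 21.2) in the 6 CD8-fated mice, with overlap (0.79 ± 0.22, adjusted p = 0.405). *Bcl2l11* in CD4+CD8lo ran from 4.18 to 119 CPM (median 37.3) in the CD4-fated mice and was at 114, 212, 195 and 279 CPM in the MHCII-/- and OT-I mice (-1.58 ± 0.41, adjusted p = 0.267). The MHCII-/- values rest on 14 and 26 cells, of which 57.1 and 69.2% were negative selection-like, the class with the highest *Bcl2l11* in WT mice. That share was 5.21 and 0% in the OT-I mice and 0 to 7.27% in the CD4-fated mice. The part of those cells was not tested. Neither difference passed edgeR's quasi-likelihood test.

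In semimature cells, CD4 SM of CD4-fated mice against CD8 SM of CD8-fated mice, 10.7% of 9270 genes were called (5.40% higher in CD4-fated mice) and 1 of 9 members, *Bcl2a1d*. It was at 7.50 and 8.28 CPM in AND, 28.3 and 33.9 CPM in MHCI-/- and 3.45 and 0 CPM in OT-II mice, and at 0 and 0 CPM in F5, 9.45 and 10.7 CPM in MHCII-/- and 1.29 and 0.85 CPM in OT-I mice. The groups overlapped. Both CD4-fated mice were higher within the MHC family and within AND with F5, but not within the OT family. The difference was 1.52 ± 0.30 (adjusted p = 0.00398 in edgeR's quasi-likelihood test) and was called without each mouse in turn (adjusted p up to 0.0314). It was no longer called with the named other clusters left out (1.01, adjusted p = 0.069), with gate thresholds raised (1.21, adjusted p = 0.0615) or with no family covariate (1.42, adjusted p = 0.311). It was also not called within the OT mice (1.09, adjusted p = 0.489) or the AND and F5 mice (7.47 ± 3.89, adjusted p = 0.652, with F5 at 0 CPM). F5 1 had 10 cells in this gate.

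*Mcl1* and *Bcl2l1* came close to the threshold in semimature cells. *Mcl1* ran from 259 to 351 CPM (median 298) in CD4-fated and from 171 to 282 CPM (median 244) in CD8-fated mice (0.44 ± 0.14, adjusted p = 0.0516), and DESeq2 called it (0.42, adjusted p = 0.0027). *Bcl2l1* ran from 12.4 to 26.6 CPM and from 0 to 15.6 CPM (0.68 ± 0.22, adjusted p = 0.0565), again with overlap. With the number of the mouse within its family as a replicate block, a fit in which 18.9% of genes were called, 4 members were called in semimature cells, all higher in CD4-fated mice by edgeR's quasi-likelihood test: *Bcl2a1d* (1.51), *Bcl2a1b* (0.75, adjusted p = 0.0461), *Bcl2l1* (0.69, adjusted p = 0.0308) and *Mcl1* (0.42, adjusted p = 0.012).

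In mature cells, 13.1% of 8659 genes were called and none of 8 members, with 3 at an unadjusted p under 0.05. *Mcl1* ran from 247 to 316 CPM (median 301) in CD4 Mat of CD4-fated mice and from 188 to 271 CPM (median 227) in CD8 Mat of CD8-fated mice (0.39 ± 0.13, adjusted p = 0.0557 in edgeR's quasi-likelihood test), and DESeq2 called it (0.40, adjusted p = 0.0037). The direction is that of the WT mice, whose CD4 Mat cells also had more *Mcl1* than their CD8 Mat cells. *Bcl2a1b* (1.51 ± 0.52, adjusted p = 0.0679) and *Bak1* (-0.44 ± 0.16, adjusted p = 0.0866) were the other members. With the replicate block, where 18.4% of genes were called, 2 of 8 members were called by edgeR's quasi-likelihood test, *Mcl1* (0.39, adjusted p = 0.00832) and *Bak1* (-0.47, adjusted p = 0.0325). The median of the members was 0.16, against 0.00 for all genes.

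**Figure D4:**
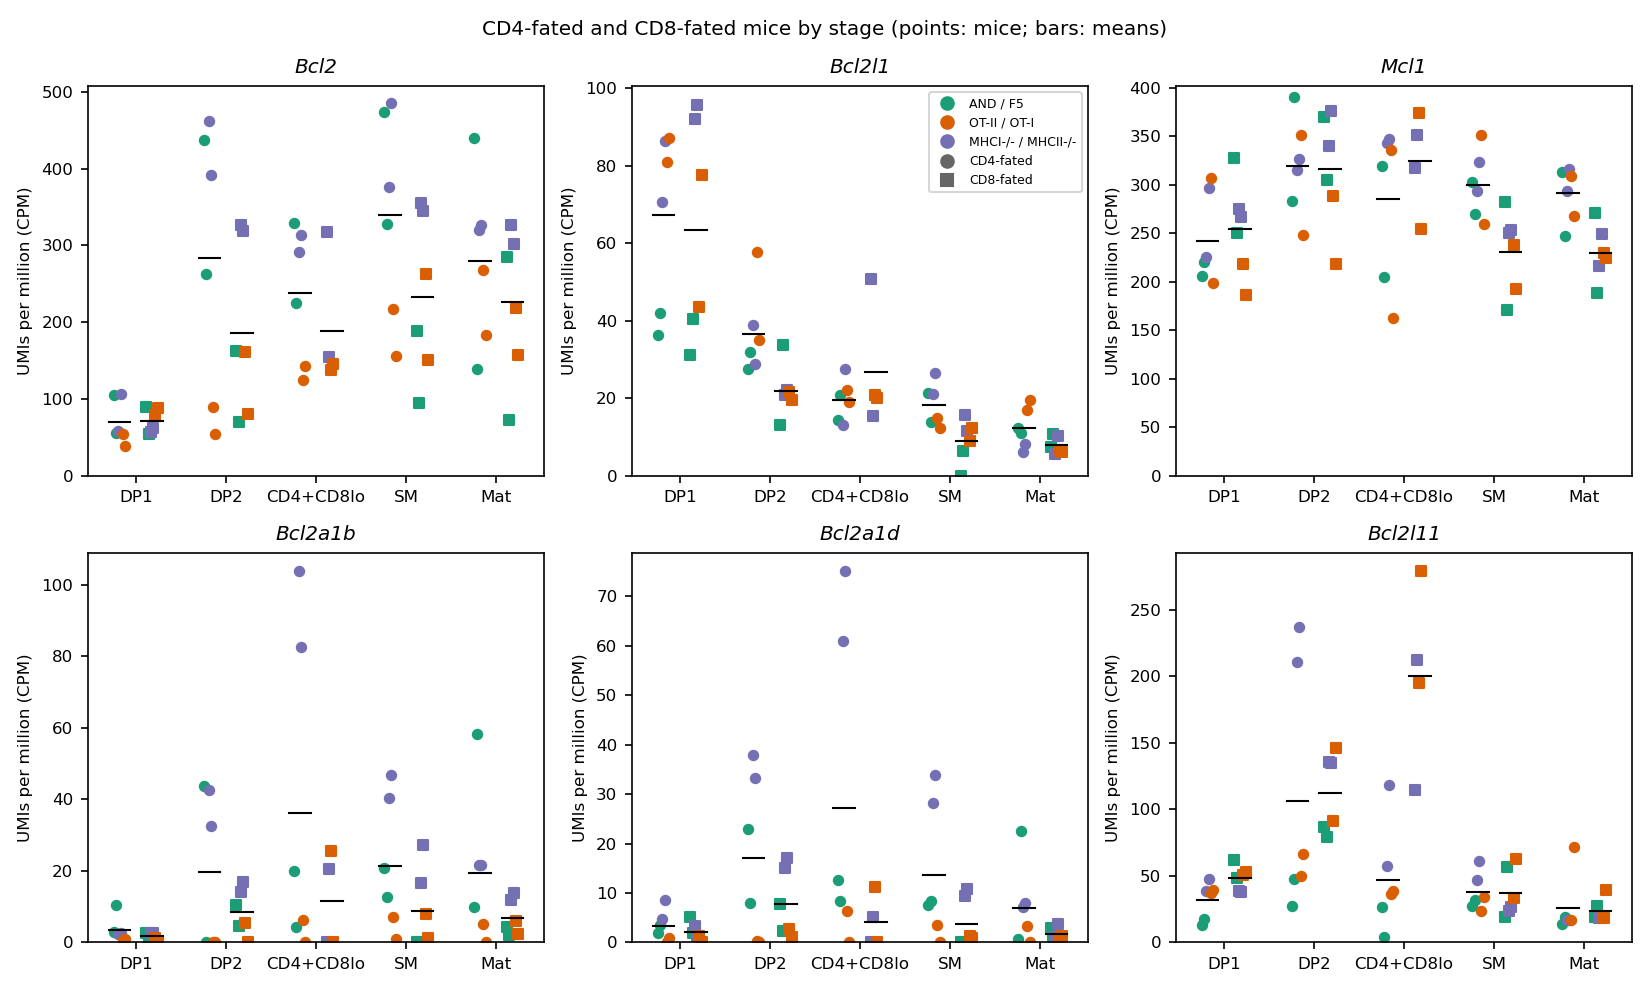
Level (CPM, linear axis from 0) of 6 family genes in CD4-fated (circles) and CD8-fated mice (squares) at each stage, with a point per mouse colored by family and a line at the mean, SM and Mat being the CD4 gates of the former and the CD8 gates of the latter. *Bcl2a1d* in SM is the single call of the fit without the replicate block, with the MHCI-/- mice (28.3 and 33.9 CPM) highest, and *Bcl2l11* in CD4+CD8lo was at 114 to 279 CPM in CD8-fated and 4.18 to 119 CPM in CD4-fated mice. Of the CD4+CD8lo cells of the MHCII-/- mice, 57.1 and 69.2% were negative selection-like.

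The lineage difference of no member differed between the families by the test of the lineage-by-family terms, where 0.394% of all genes were called in DP1, 0.954% in DP2, 0.557% in CD4+CD8lo, 0.248% in semimature and 0.450% in mature cells. Of 36 such tests of members, 8 were at an unadjusted p under 0.05, where 6.18 to 12.3% of all genes were in the 5 gates, and the lowest adjusted p was that of *Bcl2l11* in DP2 (0.0532) and in DP1 (0.0656). Within families, *Bcl2l11* in DP1 was at 12.8 and 17.5 CPM in AND mice and at 61.9 and 48.4 CPM in F5 mice (-1.91 ± 0.31, adjusted p = 0.0354 in edgeR's quasi-likelihood test), whereas the difference was -0.45 in the OT and 0.21 in the MHC family. The AND values rest on 134 and 41 cells, of which 20.1 and 17.1% were cycling-like, a class in which *Bcl2l11* averaged 21.0 CPM in WT mice (62.1 CPM in quiescent DP-like cells), against 4.34 and 13.3% in F5 mice, and the part of those cells was not tested. *Bcl2l11* in DP2 was at 210 and 237 CPM in MHCI-/- and at 136 and 135 CPM in MHCII-/- mice (0.74), but lower in the CD4-fated mice of the other families (-1.34 in AND with F5, -1.14 in OT-II with OT-I). *Bcl2* in semimature cells was at 474 and 329 CPM in AND and at 188 and 94.7 CPM in F5 mice (1.87 ± 0.38, adjusted p = 0.048 in edgeR's quasi-likelihood test), the F5 values resting on 10 and 35 cells. The lowest adjusted p within a family was that of *Bcl2a1b* in mature cells, at 9.99 and 58.3 CPM in AND and at 4.42 and 2.16 CPM in F5 mice (3.82 ± 0.76, adjusted p = 0.0107), the F5 values resting on 3 and 6 UMIs. *Bcl2a1d* in semimature cells was called in the MHC family (1.55, adjusted p = 0.0252 in edgeR's quasi-likelihood test). No member was called in all 3 families.

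Of the pathway list, none of the 37, 33 and 25 genes tested was called in DP1, DP2 and CD4+CD8lo. In semimature cells 1 of 39 was higher in CD4-fated mice, *Birc3* (0.83), and 2 were lower, among them *Birc5* (-1.58), against 5.40% and 5.31% of all genes. In mature cells 4 of 35 were higher, led by *Birc3* (1.00), and 4 lower, led by *Birc5* (-2.17) and *Bid* (-1.45), a BH3-only gene, against 5.90% and 7.21% of all genes.

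The log2 ratio of *Bcl2* to *Bcl2l1* was not shown to differ between the lineages. Its mean in CD4-fated minus CD8-fated mice was -0.24 in DP1, -0.27 in DP2, 0.66 in CD4+CD8lo, -0.71 in semimature and -0.18 in mature cells. The two-sided exact permutation p was 0.652, 0.706, 0.176, 0.303 and 0.740, and 0.740 in each gate after Benjamini-Hochberg adjustment over the 5 gates. The smallest p that 6 mice against 6 allow is 0.00216, and 0.00476 in CD4+CD8lo. With labels exchanged within families alone, a test added after seeing the data, the exact p ran from 0.315 to 0.704 over the 5 gates. In CD4+CD8lo, where AND mice then had no partner, the difference was 0.45, and the smallest p possible is 0.0556.

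CD5, a surface protein that tracks the strength of TCR signaling, was used to rank the cells of the DP2 gate by protein. The top and bottom quartile of CD5 antibody counts were compared within 16 mice, AND 2 having too few cells, and 10.6% of 4406 genes were called (5.17% higher in the top quartile). *Bcl2* had a median of 189 CPM over the mice in the bottom and 291 CPM in the top quartile and was higher in the top in 11 of 16 mice (0.79 ± 0.25, adjusted p = 0.0459). *Bcl2l11* had medians of 88.0 and 154 CPM and was higher in 10 of 16 mice, including all 5 WT mice (0.65 ± 0.20, adjusted p = 0.0357). In both F5 mice both genes were lower in the top quartile. Of the 16 mice, 7 had been sorted for CD5+ cells, and the genes ran unlike by sort. *Bcl2* was higher in the top quartile in 4 of 7 sorted mice (medians of 333 and 327 CPM) and in 7 of 9 unsorted mice (46.4 and 156 CPM), whereas *Bcl2l11* was higher in 6 of 7 sorted (120 and 211 CPM) and in 4 of 9 unsorted mice (62.2 and 76.2 CPM). The difference between sorted and unsorted mice was not tested. Cell types in DP2 differed by sort as well. In WT 1 to WT 3, 6.50, 12.2 and 10.5% of DP2 were negative selection-like, and in WT 4 and WT 5, 69.6 and 65.0% were quiescent DP-like. No fit of the CD5 quartiles left such clusters out, and the part of cell types was not tested.

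Both calls depended on the processing or on a family of mice. That of *Bcl2* was kept in 4 of 10 other settings. In edgeR's quasi-likelihood test it was lost with library size in place of TMM (adjusted p = 0.058). It was lost as well without AND and F5 mice (adjusted p = 0.069) and without OT mice (adjusted p = 0.17). The same held in WT mice alone, with at least 30 cells and without the mouse as a block. That of *Bcl2l11*, kept in 7 of 10, was lost in DESeq2 (adjusted p = 0.12), without MHC mice (adjusted p = 0.12) and without the mouse as a block. *Bax* was higher in 15 of 16 mice by a small amount (0.29 ± 0.10, adjusted p = 0.0583 in edgeR's quasi-likelihood test). *Bcl2l1* was below the filter here, with medians of 34.6 CPM in the bottom and 20.8 CPM in the top quartile, and was higher in the top in 2 of 16 mice. Of the pathway list, 2 of 22 genes rose (*Trp53*, 0.33, and *Casp6*, 0.32) and *Birc5* fell (-1.98).

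CD127 binds IL-7, a cytokine known to maintain T cells through Bcl2. Among single-positive cells, the top and bottom quartile of CD127 antibody counts were compared in all 17 mice, and 8.05% of 8480 genes were called (4.29% higher and 3.76% lower in the top quartile). *Bcl2* had a median of 234 CPM in the bottom and 392 CPM in the top quartile and was higher in the top in 17 of 17 mice (0.80 ± 0.06, adjusted p = 1.37e-08 in edgeR's quasi-likelihood test). The smallest rise in CPM was in F5 2, from 47.5 to 64.8 CPM. *Bcl2l11* went the other way, with medians of 43.4 and 26.0 CPM, lower in the top in 15 of 17 mice (-0.75 ± 0.13, adjusted p = 0.000614). It was lower in 7 of 7 sorted mice, with medians of 51.4 and 21.6 CPM, and in 8 of 10 unsorted mice, where the medians of both quartiles were 36.0 CPM, and the difference between sorted and unsorted mice was not tested. WT 1 to WT 5 had 38.1, 80.2, 63.3, 76.6 and 226 CPM in the bottom and 15.7, 34.0, 12.3, 53.5 and 101 CPM in the top quartile.

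*Bcl2a1b* was also called lower in cells with more CD127 (-0.58 ± 0.13, adjusted p = 0.008), being lower in 12 of 17 mice, higher in 4 and at 0 in both quartiles of OT-II 2, although its median over the mice was 13.9 CPM in the bottom and 16.8 CPM in the top quartile. It was not called in DESeq2 (-0.43, adjusted p = 0.14) or without MHC mice (-0.48, adjusted p = 0.14). *Bcl2a1d* gave -0.55 (adjusted p = 0.113 in edgeR's quasi-likelihood test). Of the pathway list, 1 of 35 genes rose (*Cycs*, which encodes cytochrome c, 0.21) and 2 fell (*Foxo3*, -0.29, and *Fas*, a death receptor, -0.27). The quartiles hold CD4 and CD8 cells of all stages with CD69 free, so that stage differs between them and its part was not tested. Cell types can differ too. Over all 17 mice, Treg-like and negative selection-like cells made up 17.9 and 5.88% of CD4+CD8lo, which lacks CD127, and 6.87 and 3.07% of CD4 SM. No quartile fit left these clusters out, so that their part was not tested either.

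**Figure D5:**
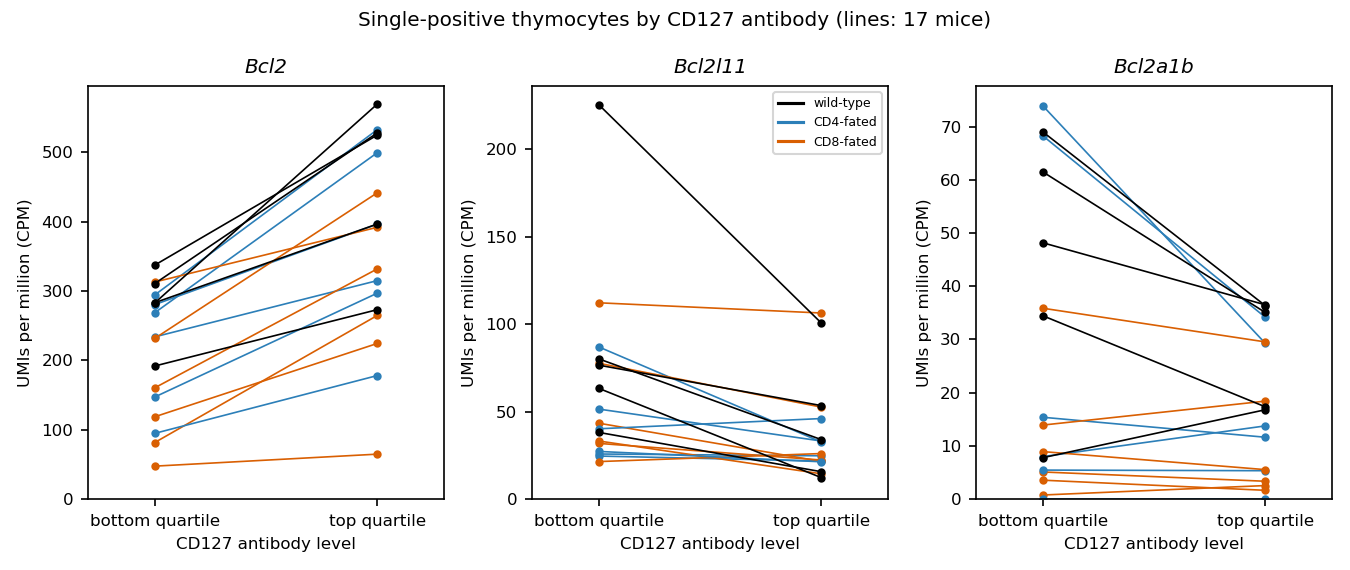
*Bcl2*, *Bcl2l11* and *Bcl2a1b* (CPM, linear axis from 0) in the bottom and top quartile of CD127 antibody counts among single-positive cells, with a line for each of the 17 mice. In the top quartile *Bcl2* was higher in 17 of 17 mice, *Bcl2l11* lower in 15 of 17 and *Bcl2a1b* lower in 12 of 17.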

How the data were processed

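CITE-seq was run on thymocytes from 17 mice (19 lanes). The authors deposited raw counts, that is UMIs per gene or antibody and barcode, made with Cell Ranger 3.1.0 on GRCm38 (mm10) per the submitters' notes. Pooled matrices were not used here. Barcodes were kept as in the study, with at most 15% mitochondrial UMIs, at least 200 genes, 1000 to 10000 antibody UMIs and at least 70 of the 111 antibodies, and 72054 of 85389 passed. From these, 2792 doublets, called per lane from simulated doublets at 0.8% per 1000 barcodes, were removed.

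Gates were set on antibody counts by Otsu's method in each experiment. UMIs were summed per mouse and gate (at least 10 cells), with the lanes of a mouse added together, and given as CPM (UMIs of a sum scaled to the same total). The mouse was the replicate. In the steps and quartile contrasts, where the mouse was a block, p-values measure the spread left once the level of each mouse is taken out. In the lineage comparisons they measure the spread between mice beyond their family. Sums were tested with edgeR 4.0.16 (quasi-likelihood test, TMM, low-count filter, Benjamini-Hochberg) in R 4.3.3, with DESeq2 1.42.0 as an alternative. Standard errors were taken from the fold change and the F statistic. Clusters were made with leidenalg 0.10.2 on 30 principal components of 2000 genes, with 20 neighbors and resolution 1, without the members.

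The members and the pathway list were chosen with earlier results of these data known. All 10 members are named; of the pathway list, the up to 3 largest called changes per comparison, apart from some genes not reported here; and the 3 genes most correlated with *Bcl2*, *Bcl2l1* and *Bcl2l11*. On simulated counts of the step from DP1 to DP2 (9153 genes), 90 of 100 genes changed by 2-fold and 99 of 99 tested changed by 4-fold were recovered, and 7 unchanged genes were called. The simulation gave all genes the same dispersion and the mice no differences other than depth, so that it does not give the power in these data. Other settings tried were normalization, filters, gate thresholds, cell minimum, blocks, sorted or unsorted mice, and leaving out each mouse.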

Additional observations from a re-analysis of the deposited data

Results flagged for a closer look

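Each member was examined in each gate of the WT mice for a mouse far from the other 4 (Dixon's test). Of 80 such groups, 14 held a mouse set apart, and chance alone marks about 5% of groups.

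*Bax* was set apart by WT 5 in 4 gates: 34.8 CPM in CD4 Mat (122 to 136 in the other mice), 44.9 CPM in CD4 SM (127 to 145), 28.6 CPM in CD8 Mat (122 to 152) and 24.7 CPM in CD8 SM (136 to 166). WT 5 also stood apart in *Bcl2l11* in CD4+CD8lo cells (363 CPM, others 63.4 to 138) and in *Bcl2a1b* in DP3 cells (4.53 CPM, others 26.8 to 32.5).

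WT 1 stood apart in the CD4+CD8lo gate, where it had 22 cells, with *Bcl2* at 1035 CPM (others 146 to 372) and *Bbc3* at 83.2 CPM from 9 UMIs (others 7.04 to 20.3). *Bbc3* was high in CD8 SM of WT 2, at 22.2 CPM (others 6.59 to 10.9), and *Bcl2a1b* in CD4 Mat of WT 4, at 81.7 CPM (others 13.6 to 29.0).

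*Pmaip1* gave 4 such values from few UMIs: 1.24 CPM in CD4 Mat of WT 1 (2 UMIs), 5.04 CPM in CD4+CD8lo of WT 5 (1 UMI), 2.12 CPM in DP1 of WT 5 (8 UMIs) and 3.83 CPM in DP3 of WT 3 (2 UMIs).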

How the results depend on the processing

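Over the 8 WT steps, 18 member values were called, and 12 to 17 when a mouse was left out. In the 5 lineage comparisons 1 was called, and 1 to 3 when a mouse was left out, with 3 without F5 1, OT-I 1 or OT-I 2 and 2 without AND 1. The lineage count was 3 in DESeq2, 6 with no filter on low counts, 2 with at least 30 cells, 0 with gate thresholds raised, 3 with them lowered, 0 with no family covariate and 0 within the OT mice. It was 3 against 1 with CD127 left out of the gates, chosen after seeing the data as was the fit without AND and F5 mice, and 3 against 1 within AND and F5 mice, both over 4 comparisons. The quartile contrasts gave 5 calls, 3 in DESeq2 and 3 without MHC mice. *Bcl2l11* from DP2 to CD4+CD8lo was at 0.08, not called, in WT mice and at -0.77, called, in the CD4-fated mice, and the cause was not tested. When a mouse was left out, the lineage difference of the *Bcl2* to *Bcl2l1* ratio ran from -0.53 to 0.00 in DP1, -0.63 to 0.12 in DP2, 0.47 to 0.87 in CD4+CD8lo, -0.97 to -0.16 in semimature and -0.57 to 0.06 in mature cells. Of all other member values, 320 were called as before, 1936 were called in neither fit, 77 gained and 90 lost their call; a change of sign between values that both missed the threshold was not counted as a reversal.

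Without the mouse as a replicate block, the WT steps gave 6 calls and the quartiles 0. In the lineage comparisons, a replicate block on the number of the mouse gave 6 calls in place of 1. The number was also the experiment in AND and F5 mice, and same-numbered mice deviated together in the OT family (r = 0.35 to 0.68) but little in the others (-0.02 to 0.10), so the block was kept as an alternative. Genes at a few CPM, *Pmaip1* and the A1 genes above all, rest on few UMIs in the small gates.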

Other observations

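Values outside the comparisons came from the CD4 SM and CD4 Mat gates of CD8-fated mice. OT-I mice held CD4 SM cells (343 and 366 cells), and *Bcl2l11* was at 172 and 238 CPM in them, against 23.8 to 61.2 CPM in CD4 SM of the other lineage-restricted mice. The OT-I CD4+CD8lo cells, which were part of the lineage comparison, were at 195 and 279 CPM of *Bcl2l11*. They had 59.9 and 60.2 UMIs of CD8a in every 10000 of all antibodies, and OT-I CD4 SM cells had 60.5 and 62.9. CD4+CD8lo cells of the CD4-fated mice had 18.2 to 48.6. The paper places a CD4+CD8lo stage on the path of CD8-fated cells as well. Whether the cells of this gate are that stage was not tested.

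MHCII-/- mice held 33 and 75 CD4 SM cells, with *Bcl2* at 767 and 820 CPM, and 15 and 21 CD4 Mat cells, with *Bcl2a1b* at 120 and 179 CPM and *Bcl2a1d* at 85.9 and 161 CPM. Of these CD4 Mat cells, 73.3 and 81.0% lay in clusters named as other than conventional single-positive cells. The part of those cells in the A1 levels was not tested.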
